A study of Homo sapiens with 15 samples.

Results

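The region described here is 8q24 around MYC, the stretch of chromosome 8 from 127000000 to 130500000 in hg19. Its members are the ChIP-seq peaks of 4 deposited lists whose centre lay within those bounds, chosen by position alone. They numbered 977 of the 647617 peaks of the series: 384 of 252459 in H3K4ox replicate 1, 376 of 246967 in H3K4ox replicate 2, 54 of 38584 for H2A.Z and 163 of 109607 for RUVBL2. All 4 libraries were made from MDA-MB-231, a long-established human breast cancer cell line, and the labels give no knockdown and no treatment for them. The H3K4ox antibody was handmade, and those against H2A.Z (H2AZ in the labels) and RUVBL2 were bought from abcam. H3K4ox had 2 libraries, which are not stated to come from separate cultures, and H2A.Z and RUVBL2 had 1 each. The input, 8 RNA-seq and 2 ATAC-seq libraries were not analysed here, so expression of MYC was not measured. Read depth was unknown because the lists give peaks alone, and no marker of the cell line could be checked in them. The results therefore describe 1 cell line, and no spread between cultures is known for H2A.Z or RUVBL2.

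MYC encodes a transcription factor that drives growth and proliferation and is often gained or highly expressed in breast cancer. PVT1, a long noncoding RNA gene, lies downstream of it and hosts several microRNAs. Both sit in a wide stretch with few protein-coding genes that is known to hold enhancers of MYC and inherited risk variants for several cancers. H3K4ox is histone H3 oxidised at lysine 4 by LOXL2 and has been tied to compact chromatin. H2A.Z is a histone variant found at promoters and enhancers, and RUVBL2 is an ATPase of the complexes that exchange it. In the RefSeq order of genes on GRCh38.p14, a later build whose coordinates were not used, the 17 genes listed for this neighbourhood all matched. They ran from FAM84B through PCAT1, CASC19, CCAT1, CASC8, POU5F1B and CASC11 to MYC and PVT1, and on to LINC00824 and CCDC26. Of the 17, only FAM84B, POU5F1B and MYC were protein-coding.

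By ratio, the region as a whole was denser in peaks than the genome for every list, though for H2A.Z the interval of the ratio included 1. H3K4ox had 109.7 peaks per Mb in replicate 1 and 107 in replicate 2, against 83.9 and 82.1 per Mb over the 3009.7 Mb between the outermost peaks of all chromosomes. Stretches that cannot hold peaks were not removed from that span. Removing them would raise the genome's means and lower the ratios to them. The ratio to the genome was 1.31 ± 0.00087 (SD, n = 2). That SD gives the closeness of the 2 lists and leaves out counting error. The 95% exact Poisson intervals of the region's counts were 9.90 to 12.1 and 9.68 to 11.9 peaks per 100 kb, against 8.39 and 8.21 in the genome. RUVBL2 had 46.6 peaks per Mb against 36.4 in the genome, a ratio of 1.28 (95% interval 1.10 to 1.49). H2A.Z had 15.4 against 12.8, a ratio of 1.20 (0.923 to 1.57). All these intervals take every peak as an independent count. Peaks were unevenly spread, with 0 to 16 RUVBL2 peaks per 100 kb of the region, so the intervals are likely too narrow. They do not separate H2A.Z from the other antibodies. The rest of chromosome 8 was sparser than the genome, with 64.6 and 64.7 H3K4ox, 28.8 RUVBL2 and 9.90 H2A.Z peaks per Mb. Over the rest of the chromosome the region's ratios were 1.68 ± 0.026 (SD, n = 2) for H3K4ox, 1.62 for RUVBL2 and 1.56 for H2A.Z. Among 841 consecutive stretches of 3.5 Mb, the region held the 207th highest count of both H3K4ox lists, the 185th of RUVBL2 and the 251st of H2A.Z. It was therefore above the median stretch for every list without being among the densest. The 3 antibodies stood in nearly the genome's proportions: for every 100 H3K4ox peaks there were 42.9 RUVBL2 and 14.2 H2A.Z peaks in the region, and 43.9 and 15.5 in the genome.

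Peaks were mapped in 35 steps of 100 kb, and those of the MYC-PVT1 segment, 128.7 to 129.2 Mb, were set against the 30 steps on both sides, called the desert here. H3K4ox had 2 maxima along the region. The larger began with the step that holds MYC. The steps at 128.7, 128.8 and 128.9 Mb held 25, 34 and 27 peaks of replicate 1 and 30, 28 and 24 of replicate 2. The last steps of the segment, at 129.0 and 129.1 Mb, held 11 and 11 peaks of replicate 1 and 9 and 12 of replicate 2, nearer to the desert's medians of 7 and 8. The second maximum lay more than 1000 kb before MYC, where the steps at 127.3, 127.4 and 127.5 Mb held 16, 19 and 24 peaks of replicate 1 and 15, 21 and 16 of replicate 2. No desert step reached the fullest segment step in either replicate, and no desert step reached the segment's median of 25 in replicate 1 or of 24 in replicate 2. The emptiest step differed between replicates, at 129.4 Mb with 2 peaks in replicate 1, and with 4 peaks at 127.0 and 129.5 Mb in replicate 2. Over the genome, 1.52% of 30123 steps had at least the 34 peaks of the fullest step in replicate 1, and 2.82% had at least the 30 of the fullest in replicate 2.

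RUVBL2 was also most frequent in the step that holds MYC and the next one, a shorter stretch than for H3K4ox. It had 16 peaks in each of the steps at 128.7 and 128.8 Mb, and then 4, 2 and 3 in the other segment steps. Its next fullest step was 127.4 Mb with 12 peaks. Steps at 127.1 and 129.5 Mb had no RUVBL2 peak, as was the case for 17.1% of the genome's steps. Of the genome's steps, 2.35% had at least 16. H2A.Z was laid out differently. Its fullest step was 127.2 Mb with 7 peaks, where H3K4ox had only 5 and 7, and the step with MYC had 5. The step at 128.8 Mb had 1 H2A.Z peak, those at 128.9 and 129.0 Mb had none, and 12 of the 35 steps had none in all. Such low counts were common over the genome, where 47.1% of steps had no H2A.Z peak and the median was 1. At least 7 H2A.Z peaks were held by 2.70% of the genome's steps.

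**Figure D1:**
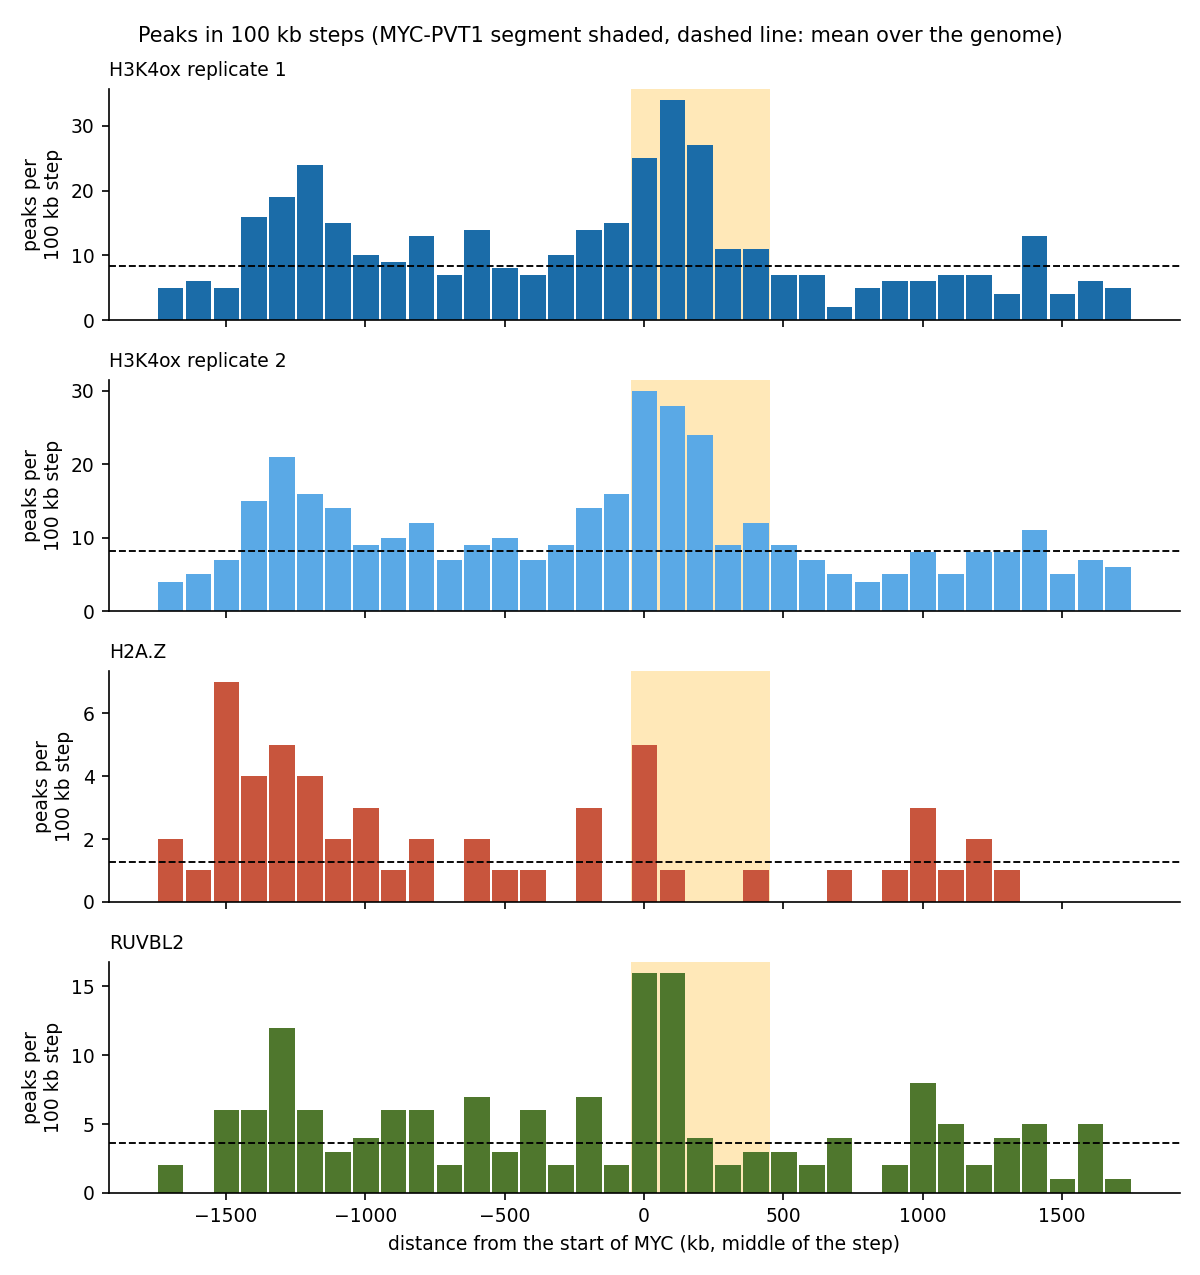
Number of peaks (vertical axis) in each 100 kb step against the distance of the step's middle from the start of MYC in kb, 1 panel for each list; the shaded band is the MYC-PVT1 segment and the dashed line the mean per 100 kb over the genome. Both H3K4ox lists peak in the first 3 segment steps, RUVBL2 in the first 2 with 16 peaks each, and H2A.Z before the segment with 7 peaks in its fullest step.

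The MYC-PVT1 segment as a whole was denser in peaks than the desert for H3K4ox and RUVBL2, with no such difference seen for H2A.Z. For RUVBL2 the excess lay in the steps at 128.7 and 128.8 Mb, with 16 peaks each, while the fullest desert step held 12. The other segment steps held 4, 2 and 3 RUVBL2 peaks. The median step held 4 RUVBL2 peaks in the segment and 4 in the desert, and 16 desert steps reached the segment's median. H3K4ox had 21.6 peaks per 100 kb in the segment and 9.20 in the desert in replicate 1, and 20.6 and 9.10 in replicate 2. The ratio of segment to desert was 2.31 ± 0.059 (SD, n = 2). RUVBL2 had 8.20 peaks per 100 kb in the segment (41 peaks, 95% exact Poisson interval 5.88 to 11.1) and 4.07 in the desert (122 peaks, 3.38 to 4.86), a ratio of 2.02 with an interval of 1.42 to 2.87. H2A.Z had 1.40 in the segment (7 peaks, 0.563 to 2.88) and 1.57 in the desert (47 peaks, 1.15 to 2.08), a ratio of 0.894 with an interval of 0.412 to 1.94. At this number of peaks no H2A.Z difference was detectable. For every 100 H3K4ox peaks there were 6.64 H2A.Z peaks in the segment and 17.1 in the desert, and 38.9 and 44.4 RUVBL2 peaks. Such intervals hold counting error alone and take every peak as an independent count. Each comparison sets parts of the same library beside each other, so no test over samples was made. As a share of length, H3K4ox peaks covered 22.5% and 20.4% of the segment in the 2 replicates, against 10.9% and 10.4% of the desert. RUVBL2 covered 8.94% of the segment and 5.02% of the desert, and H2A.Z 1.62% and 1.42%.

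The desert itself was uneven, and its side before MYC was the denser for every list. H3K4ox had 11.6 and 10.9 peaks per 100 kb before the segment and 6.08 and 6.77 after it, and RUVBL2 had 4.71 before and 3.23 after. H2A.Z had 2.24 before and 0.692 after, a ratio of 3.23 with an interval of 1.59 to 6.58. The genome's means were 8.39 and 8.21 for H3K4ox, 3.64 for RUVBL2 and 1.28 for H2A.Z. The density before the segment was above the genome's mean for each list, also at the lower end of its Poisson interval. For RUVBL2 that lower end, 3.73, was close to the mean of 3.64. Over the genome 17.1% of steps held no RUVBL2 peak, and stretches that cannot hold peaks were not removed. Whether the RUVBL2 difference would remain without them was not tested. After the segment the density was below the genome's mean, but the interval excluded that mean only in H3K4ox replicate 1. By bases covered, the side after the segment was not below the genome for every list: RUVBL2 covered 4.76% there against 4.07% of the genome, and H3K4ox replicate 2 covered 8.54% against 8.48%.

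**Figure D2:**
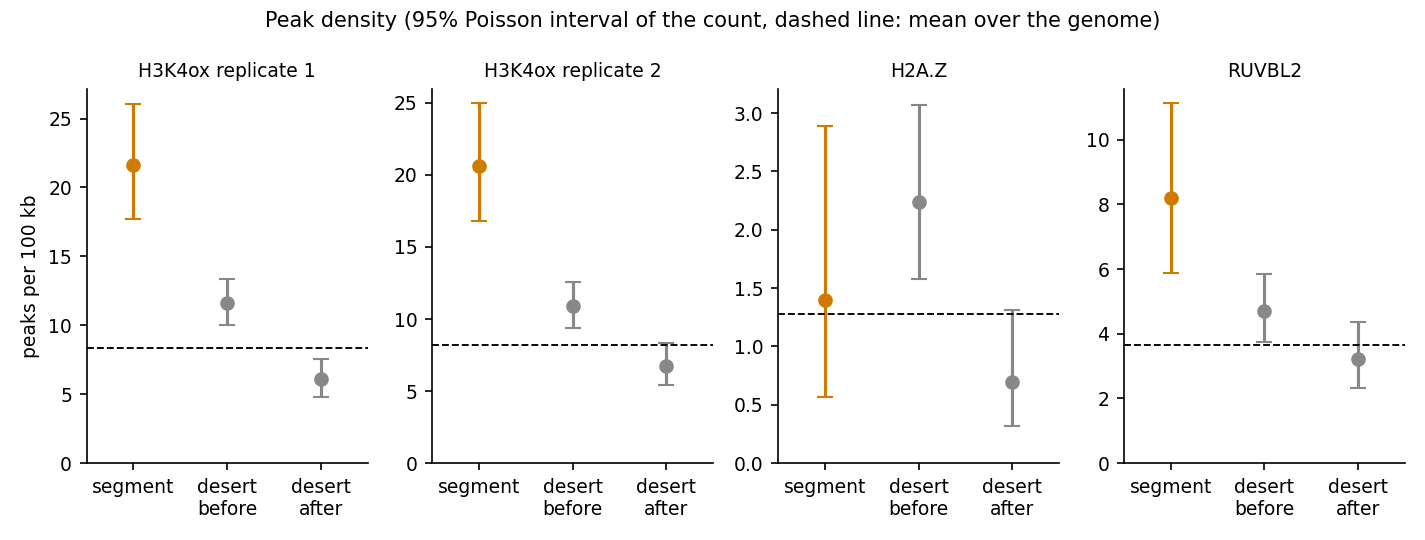
Peaks per 100 kb in the MYC-PVT1 segment and in the desert before and after it, 1 panel for each list; points are densities, bars the 95% Poisson interval of the count, and the dashed line the genome's mean. The segment is highest for both H3K4ox lists (21.6 and 20.6) and RUVBL2 (8.20), while for H2A.Z the desert before the segment is highest (2.24).

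At MYC itself, 128748315 to 128753680, the H3K4ox peaks had scores below the median of their lists. Each H3K4ox list had 1 peak inside the gene's bounds. In replicate 1 it ran from 128751873 to 128752639 with a score of 68.9, at percentile 35.1 of its list. In replicate 2 it ran from 128751988 to 128752610 with a score of 50.3, at percentile 0.62 of its list. These peaks lay 3.94 and 3.98 kb after the start of MYC by their centres. No RUVBL2 or H2A.Z peak overlapped MYC. The genome's means were 3.64 RUVBL2 and 1.28 H2A.Z peaks per 100 kb. Absence from so short a gene, or from the 10 kb on each side, thus says little. The nearest RUVBL2 peak, 128756146 to 128757060, lay 2466 bases beyond the end of the gene and had a score of 50.75, close to the list's minimum of 50. The nearest H2A.Z peak, 128736614 to 128737491, lay 10824 bases before its start, so no H2A.Z peak came within 10 kb of the gene. Within those 10 kb lay 6 peaks of H3K4ox replicate 1, 5 of replicate 2 and 1 of RUVBL2. The strongest of them followed the gene, at 128761340 to 128762878 in replicate 1 (score 205.8, percentile 86.3) and 128761339 to 128762936 in replicate 2 (score 323.8, percentile 94.2). It met neither RUVBL2 nor H2A.Z. A percentile here is the rank of a score among all peaks of its own list, in percent of the list. Before the gene lay a single H3K4ox peak within 10 kb, at 128738481 to 128739546 in replicate 1 (percentile 2.82) and 128738490 to 128739409 in replicate 2 (percentile 39.3). The remaining peaks followed the gene. In replicate 1 they were 128757251 to 128758890 (percentile 69.6), 128759037 to 128759838 (62.0) and 128759910 to 128760558 (55.2). In replicate 2 they were 128756231 to 128756888 (11.9) and 128757905 to 128758745 (17.9). The peak at 128756231 was the only H3K4ox peak of these that met RUVBL2.

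The segment's strongest site for the 3 antibodies together lay 34.8 kb after the start of MYC. There an H3K4ox shared region, a merged stretch holding peaks of both replicates, ran from 128781408 to 128784917 with a width of 3510 bp. Its H3K4ox scores were 610.1 and 663.4 (percentiles 98.2 and 98.8). The RUVBL2 peak inside it was the strongest of that antibody in the segment, with a score of 348.8 (percentile 97.0), and its H2A.Z peak had a score of 83.7 (percentile 69.5). The segment's strongest H3K4ox peak lay farther along, at 129052496 to 129054347 in replicate 1 (score 779.9) and 129052538 to 129054124 in replicate 2 (score 806.3), and met neither RUVBL2 nor H2A.Z. A further strong pair, 128909464 to 128910826 in replicate 1 (score 606.7) and 128909363 to 128910863 in replicate 2 (score 731.4), also met neither. Strong H3K4ox peaks of the segment thus occurred both with and without RUVBL2, and this last pair was chosen after its values were seen.

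H2A.Z kept to the start of the segment. Of its 7 peaks, 6 lay between 11.3 kb before and 57.9 kb after the start of MYC, and the remaining 1 lay 357.7 kb after it. The strongest, 128805356 to 128806988, had a score of 124.5 (percentile 86.6) and was the second strongest H2A.Z peak of the whole region. It met no peak of any other list. The other 6 each met a RUVBL2 peak, and 5 of them also met an H3K4ox shared region. Over the region 16 of 54 H2A.Z peaks met both (29.6%), against 25.7% of the whole list. Beyond the last of the 7, the H2A.Z list had no peak from 129106311 to 129469667, a stretch of 363 kb and the longest without a peak in that list here. The longest such stretch was 142 kb for RUVBL2, from 129500102 to 129642357. For H3K4ox it was 49.0 kb in replicate 1, from 129383651 to 129432639, and 73.6 kb in replicate 2, from 129383510 to 129457059. All 4 stretches lay wholly or mostly in the desert after the segment.

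**Figure D3:**
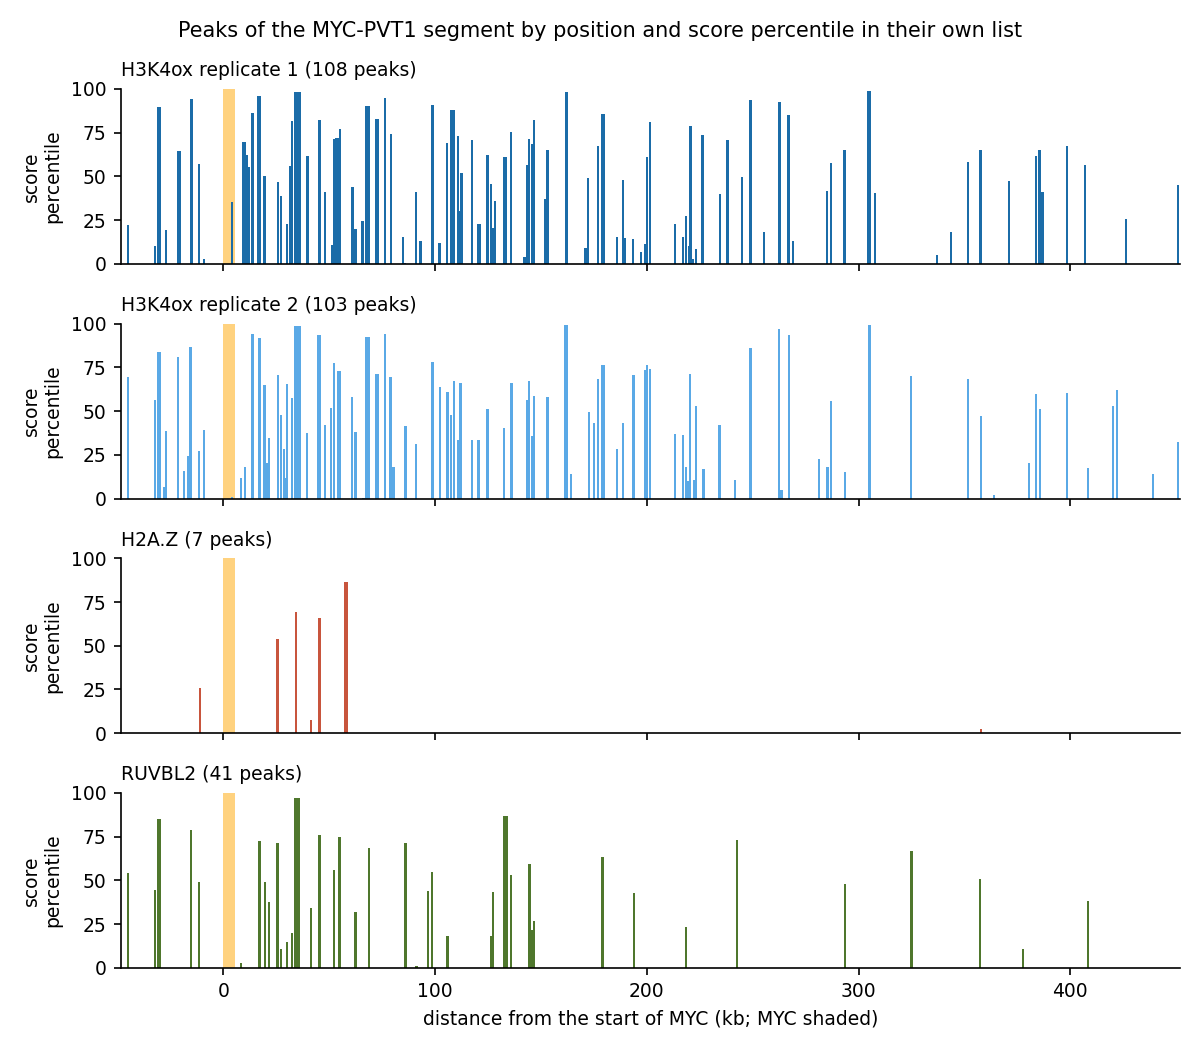
Peaks of the MYC-PVT1 segment against distance from the start of MYC in kb, 1 panel for each list; the height of each bar is the percentile of the peak's score in its own list, bars are as wide as the peak or 1 kb if it is narrower, and MYC is shaded. The 3 antibodies meet about 35 kb after the start of MYC, and 6 of the 7 H2A.Z peaks lie within 57.9 kb of that start.

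In score, the segment and the desert lay close together. The median score percentile of H3K4ox was 53.5 in the segment and 49.5 in the desert in replicate 1, and 51.3 and 53.4 in replicate 2, so the replicates differed in direction. For RUVBL2 it was 48.8 in the segment and 50.5 in the desert, and for H2A.Z 53.6 and 45.7. Peaks in the upper 10% of their list made up 9.26% of H3K4ox peaks in the segment (95% Wilson interval 5.11 to 16.2) and 12.7% in the desert (9.26 to 17.1) in replicate 1. In replicate 2 they made up 9.71% (5.36 to 16.96) and 13.2% (9.68 to 17.7), so the intervals overlapped in both. Before the segment the shares were 10.2% and 10.8%, near the 10% of the whole lists. The share was highest after the segment, at 19.0% (11.9 to 29.0) in replicate 1 and 18.2% (11.5 to 27.5) in replicate 2. RUVBL2 had 1 of 41 peaks (2.44%, 0.432 to 12.6) in the segment, 7 of 80 before it (8.75%) and 11 of 42 after it (26.2%, 15.3 to 41.1), against 10% of the whole list. No H2A.Z peak of the region was in the upper 10% of its list, against 10% of the whole list. The share was also low on the rest of chromosome 8, at 97 of 1413 (6.86%). A count of 0 of 54 has a 95% Wilson upper limit of 6.64%, and one of 5.56% when taken as 3 counts of 54.

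The strongest H3K4ox and RUVBL2 peaks of the region were far from MYC. The strongest of both H3K4ox lists was the same site, 129357683 to 129361966 with a score of 1097 in replicate 1 and 129356702 to 129361439 with a score of 1100 in replicate 2. It lay about 611 kb after the start of MYC and also held the third strongest RUVBL2 peak, 129357982 to 129361681 (score 515.3). The strongest RUVBL2 peak was 129773236 to 129777811 (score 575.7), which met the third strongest peak of replicate 2, 129774124 to 129777717 (score 993.7). The second was 129814688 to 129819711 (score 518.3), the fourth 127354948 to 127359523 (score 446.6) and the fifth 129903893 to 129906580 (score 370.4). All 5 met H3K4ox in both replicates, while 73.2% of the whole RUVBL2 list met replicate 1 and 71.8% met replicate 2. None of the 5 met H2A.Z (11.8% of the list). Of the 5 strongest peaks of each H3K4ox list, all met the other replicate, against 67.8% of the list of replicate 1 and 70.2% of that of replicate 2. All 5 of replicate 1 met RUVBL2 (30.7% of the list), and 4 of replicate 2 did (31.3%). In each of these whole lists, the peaks that met a partner named here had a higher median percentile than those that did not. The whole-list shares are thus not matched for strength, and shares for equally strong peaks of the genome were not computed. Whether these overlaps are particular to this region was not tested.

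Other strong H3K4ox peaks of replicate 1 were 130336775 to 130342234 (score 981.8), 127992542 to 127997241 (score 927.2), 129727436 to 129732813 (score 861.7) and 127812206 to 127815943 (score 858.4). In replicate 2 they were 127212494 to 127217644 (score 999.3), the segment peak at 129052538 named above, and 127354728 to 127360011 (score 795.7). The strongest H2A.Z peaks lay elsewhere. Of the 5, 4 lay before the segment: 127944313 to 127945324 (score 125.3), 127547973 to 127550229 (score 114.5), 127746375 to 127747526 (score 103.6) and 127466695 to 127467518 (score 96.0). None of the 5 met RUVBL2 (33.4% of the list), and 1, the strongest, met H3K4ox in both replicates. Those at 127547973 and 127466695 met replicate 1 alone. Of the whole H2A.Z list, 55.2% met replicate 1, 53.6% replicate 2 and 45.2% an H3K4ox shared region. Over all 54 H2A.Z peaks, the median percentile was 30.7 for the 20 with RUVBL2 and 52.5 for the 34 without. In the genome it was 51.4 with and 49.4 without.

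All wide H3K4ox regions lay in the desert. A width of at least 4 kb was reached by 0 of 80 shared regions in the segment and 15 of 197 in the desert (7.61%), and the share over the genome was 4.13%. After the segment it was 10 of 57 (17.5%). Before it the share was 5 of 140 (3.57%). The count of 0 of 80 in the segment has a 95% Wilson upper limit of 4.58%, above the genome's share, and a limit of 3.75% when taken as 3 counts of 80. Each of the 15 wide regions met a RUVBL2 peak, as did 98.2% of wide shared regions in the genome, and 4 of 15 met H2A.Z (28.8% in the genome). The strongest H3K4ox peak of each wide region had a percentile from 94.2 to 99.8 in replicate 1 and from 93.9 to 99.8 in replicate 2. Weaker peaks lay beside it in some of them: the regions held 19 peaks of replicate 1, the lowest at percentile 40.8, and 23 of replicate 2, the lowest at 4.84. At 14 of the 15, the strongest RUVBL2 peak had a percentile from 85.7 to 99.6. The exception was the site at 127992542 to 127997241, whose RUVBL2 score of 51.9 was close to the minimum. The widths of the 15 regions ran from 4483 to 5460 bp, and 14 of the 15 fell between 4500 and 5500 bp, as did 3909 of the 6721 wide regions of the genome (58.2%). Over the genome the widths of shared regions had a slight second maximum there: 2311 regions were of 3000 to 3500 bp, 2140 of 3500 to 4000 bp, 2225 of 4000 to 4500 bp, 2439 of 4500 to 5000 bp and 1470 of 5000 to 5500 bp, and then only 289 of 5500 to 6000 bp. No genome sequence or repeat annotation of hg19 was used here, so what sequence these regions hold was not analysed. The 4 kb width and the band from 4500 to 5500 bp were set after the data had been seen. That band nearly matches the range of the 15 widths, so the 14 of 15 is description alone.

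**Figure D4:**
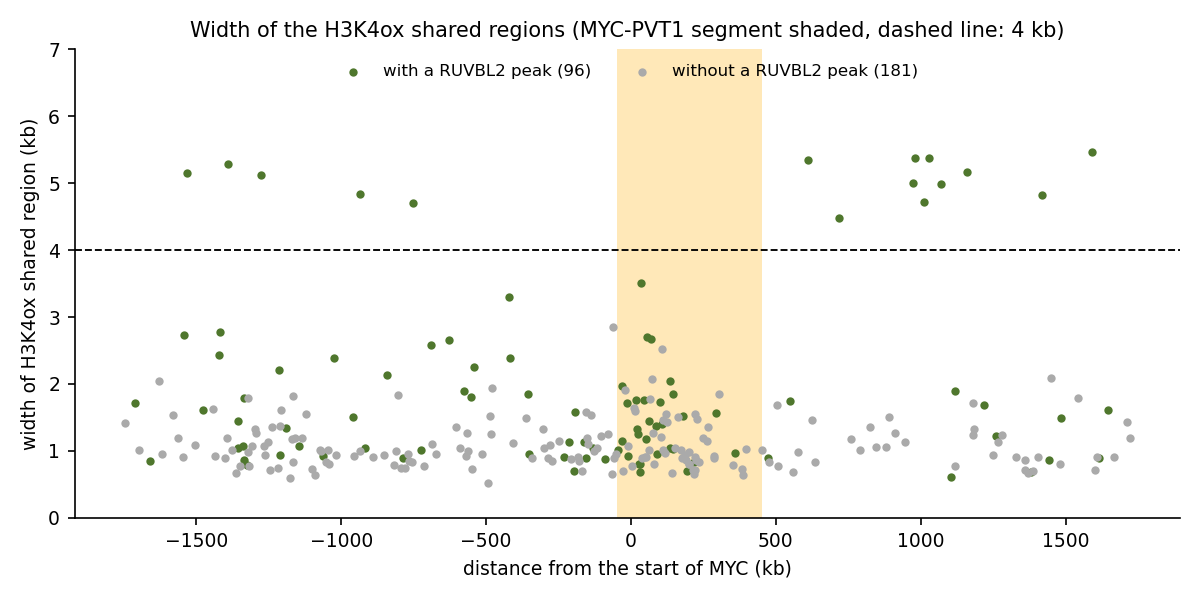
Width in kb of the 277 H3K4ox shared regions of the region against distance from the start of MYC in kb; green points met a RUVBL2 peak and grey points did not, the shaded band is the MYC-PVT1 segment and the dashed line marks 4 kb. The 15 wide regions all lie outside the segment and all met RUVBL2, and the widest region of the segment measures 3510 bp.

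Most H3K4ox peaks of the region were found in both replicates. Of the peaks of replicate 1, 75.3% met one of replicate 2 (67.8% in the genome), and of those of replicate 2, 77.7% met one of replicate 1 (70.2%). The mean was 78.2% ± 2.0 in the segment and 75.8% ± 1.6 in the desert (SD, n = 2). Within each list the segment's share was the higher by a few points, at 76.9% against 74.6% in replicate 1 and 79.6% against 76.9% in replicate 2, and the Wilson intervals of segment and desert overlapped in both. Over the 277 shared regions of the window, the Spearman correlation between the score percentiles of replicate 1 and replicate 2 was 0.69. The regions share cell line, antibody and peak caller, and were chosen as present in both. Peaks with a partner in the other replicate were the stronger ones, with median percentiles of 60.1 with and 27.2 without in replicate 1, and of 59.1 with and 32.2 without in replicate 2.

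Over the whole region, overlap between antibodies was close to the genome's level for RUVBL2. Of the 163 RUVBL2 peaks, 112 met an H3K4ox shared region (68.7%, 95% Wilson interval 61.2 to 75.3), against 64.4% of the whole list. In the segment it was 31 of 41 (75.6%, 60.7 to 86.2) and in the desert 81 of 122 (66.4%, 57.6 to 74.2), so the intervals overlapped. Of single H3K4ox peaks, 33.2% ± 2.5 met RUVBL2 in the segment and 29.7% ± 1.0 in the desert (SD, n = 2). The Wilson intervals of segment and desert overlapped in both replicates. Seen from H3K4ox, 37.5% of 80 shared regions in the segment and 33.5% of 197 in the desert held a RUVBL2 peak, against 38.5% in the genome. RUVBL2 peaks in shared regions had a median percentile of 55.9, against 36.0 for the other 51, a smaller gap than the 64.0 and 31.3 of the whole list. The difference between those gaps was not tested.

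H2A.Z peaks met RUVBL2 at a higher share in the segment than in the desert, though only 7 peaks carry the comparison. They did so in 6 of 7 cases in the segment (85.7%, 48.7 to 97.4) and in 14 of 47 in the desert (29.8%, 18.7 to 44.0), against 33.4% of the whole list. The difference was 55.9 percentage points, with a 95% interval of 16.3 to 72.1 from counting error, and no test over samples was possible. RUVBL2 covered 18.5% and 17.9% of the steps at 128.7 and 128.8 Mb, which held 6 of the 7 peaks, against 5.02% of the desert. Whether this local density of RUVBL2 accounts for the difference was not tested. Over the region 20 of 54 H2A.Z peaks met RUVBL2 (37.0%, 25.4 to 50.4), a share near that of the list. An H3K4ox shared region was met by 5 of 7 H2A.Z peaks in the segment (71.4%, 35.9 to 91.8) and by 19 of 47 in the desert (40.4%, 27.6 to 54.7), against 45.2% of the list, and these intervals overlapped. Of single H3K4ox peaks, 4.74% ± 0.16 met H2A.Z in the segment and 8.38% ± 0.45 in the desert (SD, n = 2), against 8.47% and 8.46% of the 2 lists. The segment's share rested on 5 peaks in each replicate, set against the same H2A.Z library, so the SD leaves out counting error. In replicate 1 the Wilson intervals were 1.99 to 10.4 in the segment and 5.91 to 12.6 in the desert. In replicate 2 they were 2.09 to 10.9 and 5.38 to 11.9, so they overlapped in both. Of the merged H3K4ox sites, 6.25% of shared regions in the segment and 9.14% in the desert held H2A.Z, against 10.3% in the genome.

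**Figure D5:**
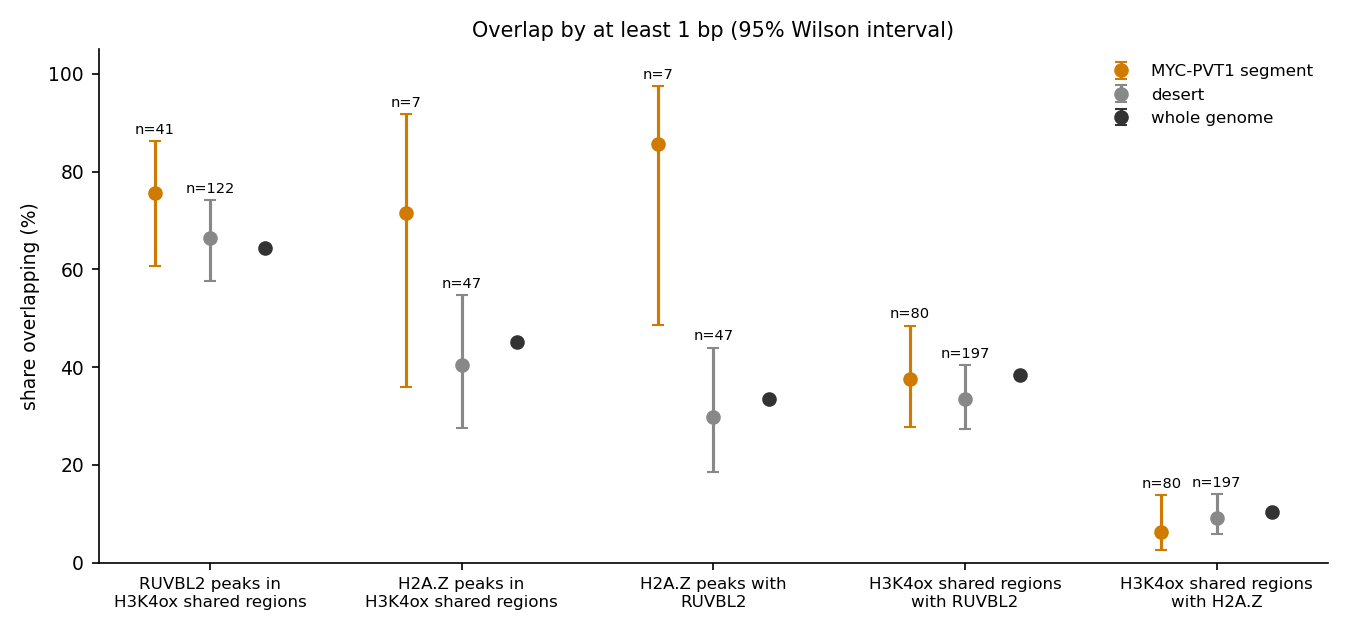
Share of peaks or regions in % that overlapped the named partner by at least 1 bp in the MYC-PVT1 segment, the desert and the whole genome; bars are 95% Wilson intervals and n is the number of peaks or regions. RUVBL2 in H3K4ox regions is 75.6% in the segment and 66.4% in the desert, with the genome's 64.4% inside both intervals. H2A.Z with RUVBL2 is 85.7% in the segment, from 7 peaks, and 29.8% in the desert.

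All 3 antibodies met at 16 H3K4ox shared regions, of which 5 lay in the segment, 8 before it and 3 after it. That was 5.78% of the 277 shared regions, against 6.21% in the genome, and the H2A.Z and RUVBL2 peaks touched each other at 15 of the 16. Ranked by the mean percentile of the 3 antibodies, the site at 128781408 described above came first. The next were 129727436 to 129732813 (mean percentile 84.1) and 127212494 to 127217644 (82.6), both among the wide regions, then 127411150 to 127412941 (78.9) and 128792660 to 128794419 (76.4), which lay 45.2 kb after the start of MYC. The site at 129719300 to 129724303 (75.9) neighboured the second. The ranks from 7 to 10 were taken by 129465549 to 129470031 (64.6), where H2A.Z and RUVBL2 did not touch, 127325255 to 127327686 (63.6), 128773414 to 128774664 in the segment (61.2) and 127603629 to 127604702 (51.3). The closest to MYC, 128736400 to 128737322, lay 11.5 kb before its start and ranked low (39.0). The remaining segment site was 129105455 to 129106420 (36.3), far from the gene.

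Along the 35 steps, counts of the H3K4ox replicates had a Spearman correlation of 0.92. RUVBL2 counts had one of 0.51 with replicate 1 and 0.57 with replicate 2, and H2A.Z counts had 0.26 and 0.30 with them and 0.63 with RUVBL2. In the 30 desert steps alone the values were 0.88 between the replicates, 0.46 and 0.55 for RUVBL2 with H3K4ox, 0.35 and 0.37 for H2A.Z with H3K4ox, and 0.65 for H2A.Z with RUVBL2. These describe neighbouring steps of single libraries, which are not independent. The segment took up 14.3% of the window's length and held 28.1% and 27.4% of the H3K4ox peaks, 25.2% of the RUVBL2 peaks and 13.0% of the H2A.Z peaks.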

How the data were processed

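Peak lists from ChIP-seq of MDA-MB-231 cells were used, 1 list per library, so replicates were not pooled. Peak names begin with MACS, a peak caller. Bowtie, TopHat and the build hg19 appear in the submitters' processing notes. No source used here gives versions or settings. The deposited score of each peak was written by the authors' caller in a unit that is not given, with a minimum of 50 in each list, and was used only to rank peaks within a list. The file headers hold the word multilocus, and only those of H3K4ox name an input. How calling without an input bears on the counts was not tested.

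Samples were grouped by antibody. Members, lists and comparisons were chosen with earlier results of these data known. Peaks were assigned by their centre, and positions count from 1. Overlap meant at least 1 bp. Python 3.11.15, numpy 2.4.6, pandas 2.3.3, scipy 1.17.1 and matplotlib 3.10.9 were used. Intervals are at 95%: exact Poisson for a density, Wilson for a share, the Wilson interval of the count's share turned into a ratio for a ratio of densities, and Newcombe's for a difference of shares. The limit of a count of 0 is also given as 3 counts of the total. Counting and overlap were tested on 20 simulated lists, of which 20 were recovered exactly. Sites were named by rule: the 5 strongest peaks per list, peaks within 10 kb of MYC, the 10 best joint sites, the fullest and emptiest steps and the longest stretches without a peak. Other peaks named were chosen after their values were seen. Alternatives were the upper 50% of each list, a covered share of 50%, 200 bp intervals at the centres, a segment widened by 100 kb on each side, each side of the desert alone, bases covered, chromosome 8 as the background, each H3K4ox replicate alone, and, added after seeing the data, widths of 3 and 5 kb.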

Additional observations from a re-analysis of the deposited data

How the results depend on the processing

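Of 72 recomputed values for 14 results, 51 kept their direction and moved by less than their spread or interval. That count was partly fixed in advance. For H3K4ox density and score, a value with 1 replicate left out could not move beyond the SD of the same 2 lists. For the H2A.Z score percentile the interval was -44.1 to 45.4 points, wide enough to hold large shifts. The steps added by widening the segment held no H2A.Z peak. The H2A.Z score and overlap values with the widened segment therefore could not move. For log2 density of the segment over the desert, H3K4ox (main 1.21) was 1.04 with the widened segment, 0.91 against the desert before it, 1.72 against the desert after it and 1.01 by bases covered, and 1.18 to 1.23 with 1 replicate left out. RUVBL2 kept its direction throughout. H2A.Z (main -0.16) turned to 0.26 in the upper 50% of the list, 1.02 against the desert after the segment and 0.19 by bases covered. For log2 density over the genome, H3K4ox (main 0.39) was 0.44 in the upper 50%, 0.48 by bases covered and 0.75 against the rest of chromosome 8, where RUVBL2 was 0.69 (main 0.35). For the difference in median score percentile, H3K4ox (main 0.93) was -3.36 in the upper 50%, -0.0295 against the desert after the segment and -2.10 to 3.96 with 1 replicate left out, and RUVBL2 (main -1.65) was 0.12 against the desert after the segment. The difference in the RUVBL2 share in H3K4ox shared regions (main 9.22 percentage points) was -7.81 in the upper 50% and 26.6 with 200 bp intervals. The difference in replicate agreement (main 2.45 points) was 2.05 in the upper 50%, -0.21 with 50% coverage, 6.57 with 200 bp intervals and 3.38 with the widened segment. The cause was not tested. H2A.Z with RUVBL2 kept its direction, from 28.0 to 65 points. Only 7 H2A.Z peaks lay in the segment, which limits each H2A.Z comparison. No paired analysis was possible because no antibodies were compared by replicate number. Segment and desert were compared within each H3K4ox list, which gave density ratios of 2.35 and 2.26.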
